A study of Mus musculus with 6 samples.

Results

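The cytochrome P450 genes of the mouse were described in the intestine of newborn animals of the inbred strain C57BL/6 that had NECA for 5 days or DMSO. NECA, short for N-ethylcarboxamidoadenosine, is an agonist of several adenosine receptor subtypes, and DMSO is the solvent used as vehicle control. Each group had 3 libraries of amplified complementary DNA made from total RNA. The labels name neither the bowel segment nor the route of NECA, and they do not say whether libraries came from separate animals. The p-values below therefore measure the spread between these libraries, which may in part be technical. A gene belonged to the set when its name was Cyp followed by a family number, subfamily letters and a gene number, which left out Cyp51, the pseudogenes and names with a trailing letter. This gave 94 of the 54532 genes listed, and 37 other rows with a Cyp number name were left out.

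Cytochrome P450 enzymes hold a heme iron, bound through 1 conserved cysteine, and use oxygen and electrons from a reductase to hydroxylate or epoxidise small molecules. In general, families 1 to 3 act largely on foreign compounds and on some fatty acids and steroids, family 4 on fatty acids and their inflammatory derivatives, and the higher-numbered families on single steps of steroid, bile acid, vitamin D and retinoid metabolism. In the small intestine most P450 protein lies in absorptive enterocytes. The shared part of these genes is the stretch of coding sequence around the heme-binding cysteine. A search for the P450 heme-binding signature in the translated coding sequences found it in 87 of the 94 genes, and in 29 of the 34 genes abundant enough to be tested. The 30 bases that encode it are given 5′ to 3′ for the genes on which the comparisons below turn, with the cysteine codon in capitals.
Cyp4v3: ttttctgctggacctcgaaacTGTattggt
Cyp4f14: ttctcggcgggacccaggaacTGCatagga
Cyp4f40: ttctcagcggggccaaggaacTGCattgga
Cyp4f13: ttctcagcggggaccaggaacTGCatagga
Cyp4f16: ttttctgccgggcccaggaacTGCatagga
Cyp4a10: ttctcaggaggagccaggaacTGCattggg
Cyp2d26: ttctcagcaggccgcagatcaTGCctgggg
Cyp2d22: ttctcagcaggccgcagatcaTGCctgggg
Cyp2c55: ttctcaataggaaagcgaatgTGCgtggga
Cyp2c65: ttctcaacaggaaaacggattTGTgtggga
Cyp2c66: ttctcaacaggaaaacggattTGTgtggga
The cysteine is codon 467 of 525 in Cyp4v3, 468 of 524 in Cyp4f14 and 435 of 490 in Cyp2c65. Cyp2c65 and Cyp2c66 carry the same 30 bases and are 96.3% identical over the coding sequence. Cyp2d26 and Cyp2d22 also carry the same 30 bases but are 77.7% identical over the whole.

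Near-identical coding sequences limit how well reads can be assigned. Of the 100-base windows of Cyp2c69 transcripts, 35.4% also occur in a transcript of another gene, as do 34.4% of those of Cyp2c40, 23.7% of Cyp2c67 and 19.8% of Cyp2c68. The values of these 4 genes, which are 96.5% to 98.1% identical to each other in coding sequence, are uncertain as single genes. The share is 18.2% for Cyp4a32, 12.2% for Cyp4a10, 7.82% for Cyp2c65, 7.39% for Cyp3a59, 6.79% for Cyp3a25, 5.95% for Cyp4f16 and 5.77% for Cyp4v3. For Cyp2d26 it is 0.319%, and Cyp4f14, Cyp4f40 and Cyp4f13 share none. The strand setting of the counting is not known, so overlapping antisense transcripts, such as Cyp4x1os at Cyp4x1, are not separated.

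The libraries held 15531996 to 18065078 counts. NECA replicate 2 stood apart from the rest: its median correlation with the other libraries, across genes, was 0.935, against 0.961 to 0.980 for the other 5. Its mitochondrial transcripts took 1.31% of counts, against 2.80% to 8.39%. The summed level of 8 markers of absorptive enterocytes, most of it from the apolipoprotein genes Apoa4 and Apoa1, was 8004 CPM (counts scaled to library size) in NECA replicate 2, against 41641 to 50941 CPM in the other 5 libraries. Of the 8, Vil1 (1512 CPM, against 655 to 1197 CPM) and Sis (14.0 CPM, against 6.09 to 13.8 CPM) were highest in that library. The sums of 5 goblet cell markers (4693 CPM, against 562 to 2282 CPM) and 5 Paneth cell markers (258 CPM, against 12.4 to 163 CPM) were also highest there. The 9 hepatocyte markers summed to 58.3 CPM in that library and to 256 to 416 CPM in the others, most of it Ttr and Serpina1a, while Alb was at 0 CPM in that library and at 0.279 to 13.9 CPM in the others. The larger fold changes that moved by over 1.5 times when NECA replicate 2 was left out are also given without it, Cyp2b10 apart. The Cyp2b10 value is given with all libraries only.

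P450 expression in newborn intestine was concentrated in few genes. Of the 94 genes, 19 had no count in any library, 45 were detected with a mean below 1 FPKM (a read level scaled for transcript length and library size, as the authors deposited it), and 30 averaged at least 1 FPKM over the 6 libraries. The last gene above that limit was Cyp2c70 at 1.08 FPKM, and the first below it was Cyp2c67 at 0.624 FPKM. The summed FPKM of all P450 genes was 558, 295 and 445 in NECA replicates 1 to 3, and 686, 572 and 505 in DMSO replicates 1 to 3. The group means were 432 ± 132 in NECA and 588 ± 91.5 in DMSO (SD, n = 3 each), and 501 ± 80.1 in NECA without replicate 2 (SD, n = 2). NECA replicate 2 had the lowest sum and DMSO replicate 1 the highest, and NECA replicate 1 lay above DMSO replicate 3, so the groups overlapped. In bulk tissue, fewer cells of a type and less RNA per cell cannot be told apart.

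The 5 highest genes made up 69.9% of the P450 FPKM, averaged over libraries. They were Cyp4f16 (104 FPKM), Cyp2d26 (89.8), Cyp3a13 (67.1), Cyp2c68 (56.9) and Cyp2j6 (39.1). By family, family 2 held 49.4% of the summed FPKM, family 4 32.3% and family 3 14.9%. The next was family 20, the orphan Cyp20a1, with 1.23%. The sum of family 2 was 302, 104 and 215 FPKM in the NECA libraries and 373, 267 and 252 FPKM in the DMSO libraries. The sum of family 4 was 170, 106 and 141 FPKM in NECA and 216, 210 and 146 FPKM in DMSO. Both were lowest in NECA replicate 2, and in both NECA replicate 1 lay above DMSO replicate 3. Family 3 varied less, with 70.1, 67.0 and 71.6 FPKM in NECA and 80.4, 77.5 and 89.2 FPKM in DMSO, all NECA sums below all DMSO sums. Without NECA replicate 2 the NECA means were 259, 70.9 and 155 FPKM for families 2, 3 and 4 (n = 2), against 297, 82.4 and 191 FPKM in DMSO (n = 3).

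**Figure D1:**
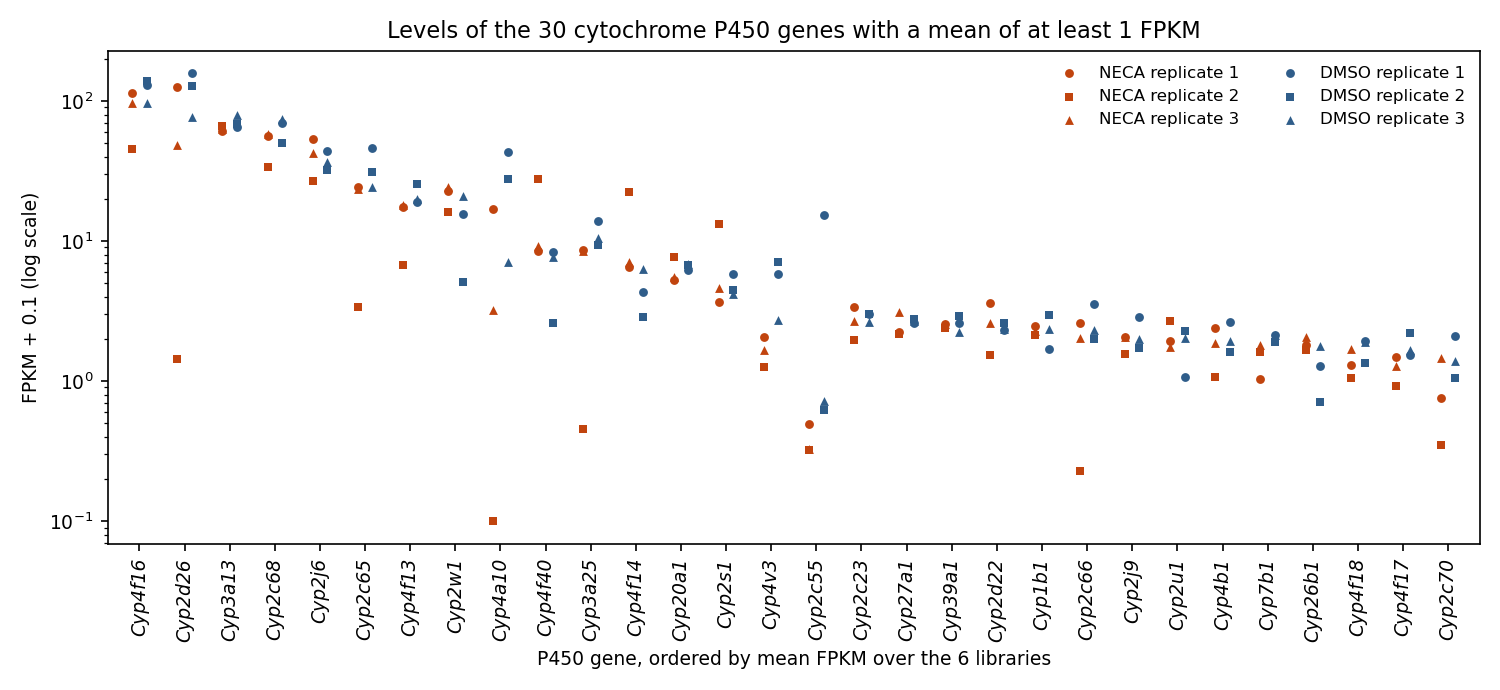
FPKM plus 0.1 on a log axis for each of the 30 P450 genes with a mean of at least 1 FPKM, 1 point per library, NECA in red and DMSO in blue, replicates 1 to 3 as circle, square and triangle. The NECA replicate 2 squares lie far below the other points for Cyp2d26, Cyp4a10, Cyp3a25 and Cyp2c66, and above them for Cyp4f40, Cyp4f14 and Cyp2s1, while in Cyp2c55 the DMSO replicate 1 circle stands alone at 15.2 FPKM.

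The 19 undetected genes came from 5 families. In family 2 no count was found for Cyp2a4, Cyp2a22, Cyp2b9, Cyp2b13, Cyp2b19, Cyp2b23, Cyp2c38, Cyp2c39, Cyp2c50, Cyp2d11, Cyp2g1, Cyp2j7 and Cyp2j11. In family 3, Cyp3a44 and Cyp3a57 had none, and in family 4, Cyp4a29 and Cyp4f37. The aromatase gene Cyp19a1 and the steroid 21-hydroxylase gene Cyp21a1 completed the 19. A count of 0 allows up to 3 counts in a library, so these genes were not detectable at this depth. This limit covers counting error only, since the reads were amplified and carry no molecular identifiers, and so do not count single molecules.

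Some members known for their roles in liver, chosen here after their values were seen, had few counts. Cyp7a1, which encodes the rate-limiting enzyme of classical bile acid synthesis, had 1 count in all, in NECA replicate 2. Cyp2c29 had 1 count, Cyp1a2 had 4, and Cyp2e1 had 15, 0 and 5 in the NECA libraries and 0, 4 and 0 in the DMSO libraries. The sterol 12α-hydroxylase gene Cyp8b1 had 4, 1 and 6 counts in NECA and 4, 3 and 4 in DMSO.

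The comparison of NECA with DMSO addressed which transcripts differ after the adenosine agonist. A filter on low counts left 15847 genes, among them 34 of the 94 P450 genes: the 30 with at least 1 FPKM and the lower Cyp2c67, Cyp2b10, Cyp3a11 and Cyp11a1. The other 60 were too low to test. EdgeR's quasi-likelihood test, with p-values adjusted after Benjamini and Hochberg, left 0 of the 34 below an adjusted p of 0.05 (smallest adjusted p = 0.738), and 0% of all tested genes did (smallest adjusted p = 0.589). At an unadjusted p under 0.05, 3 P450 genes were lower in NECA (8.82%, against 3.03% of all tested genes) and 1 was higher (2.94%, against 2.45%). DESeq2 called 1 P450 gene, Cyp4v3, as lower in NECA, where it called 0.0695% of all genes in either direction and 0.0505% as lower. For Cyp2c55 DESeq2 gave a log2 fold change of -4.28 but no p-value, so it could not call that gene. Of the 34 genes, 25 had a log2 fold change below 0 and 9 above 0, with a median of -0.26, beside a median of -0.01 over all tested genes, of which 51.0% were below 0. Without NECA replicate 2 the median over 35 tested P450 genes was -0.20, and 23 of them (65.7%, against 52.6% of all genes tested then) were below 0.

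On CPM scaled by TMM factors, the 3 NECA libraries lay below the 3 DMSO libraries in 8 of the 34 genes (23.5%, against 7.16% of all tested genes) and above them in 1 (2.94%, against 6.49%). The 8 were Cyp4v3, Cyp2c55, Cyp2c65, Cyp2c67, Cyp3a25, Cyp4f13, Cyp4f17 and Cyp7b1, and the 1 was Cyp4f14. In Cyp2c65 the closest libraries, NECA replicate 1 and DMSO replicate 3, were both at 24.2 FPKM, and on the FPKM scale the groups overlapped. Without NECA replicate 2 the groups stood apart in 10 of the 34 genes with NECA lower (29.4%, against 12.1% of all tested genes) and in 2 with NECA higher (5.88%, against 11.4%). The 10 were the 8 above with Cyp3a13 and Cyp20a1, and the 2 were Cyp4f14 and Cyp2w1. Genes that passed the filter only through their higher group had to differ, so these shares describe the genes tested, not the 94.

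**Figure D2:**
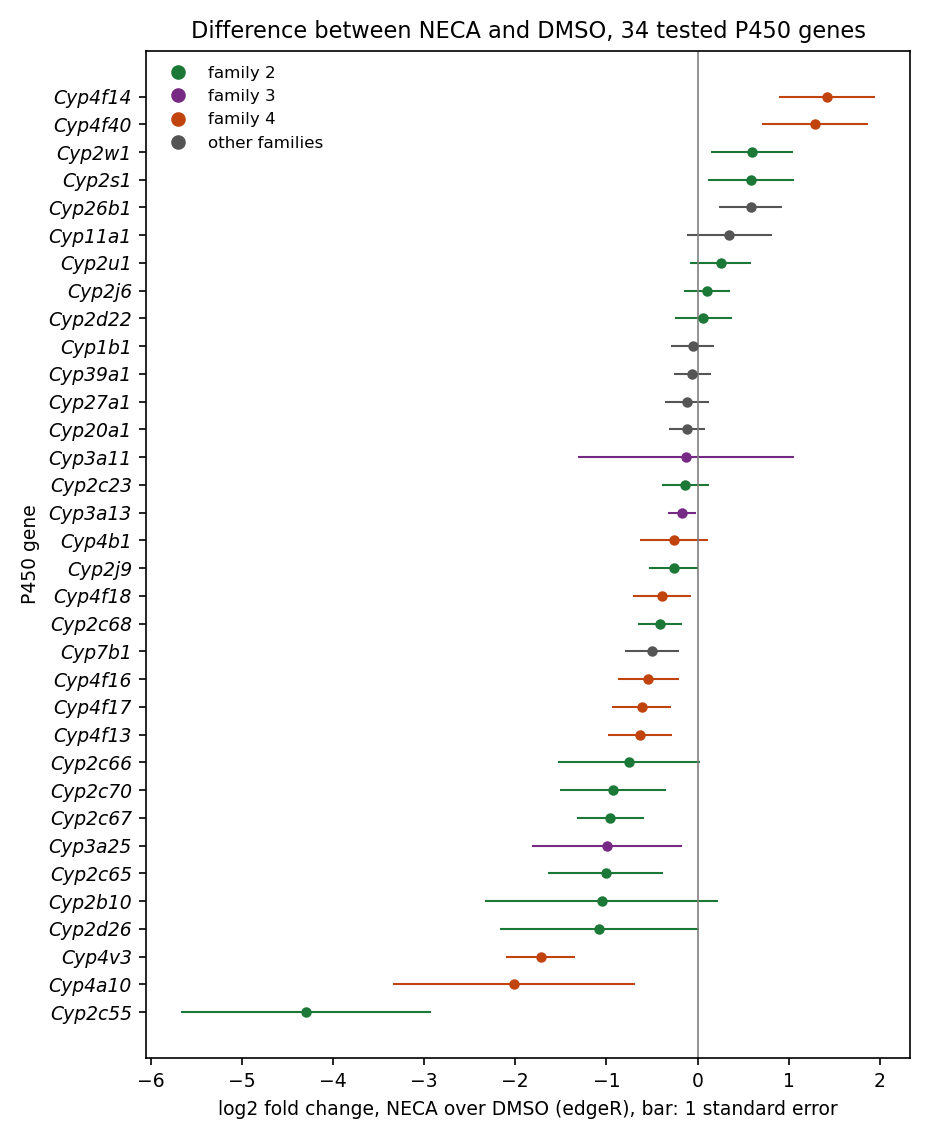
Log2 fold change, NECA over DMSO, from edgeR for each of the 34 tested P450 genes, with a bar of 1 standard error and colours by family. The values run from -4.29 in Cyp2c55 to 1.42 in Cyp4f14, 25 of them below 0, and none passed the adjusted threshold.

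Among P450 genes, Cyp4v3 had the smallest p of the comparison. Cyp4v3 (ENSMUSG00000079057, chromosome 8, 45304944 to 45333216, minus strand, GRCm38) is the mouse counterpart of human CYP4V2, a fatty acid ω-hydroxylase. It was at 1.97, 1.17 and 1.58 FPKM in the NECA libraries and at 5.69, 6.97 and 2.64 FPKM in the DMSO libraries. All NECA values lay below all DMSO values, and DMSO replicate 3 was the closest of the DMSO libraries to NECA. The summed level of 6 B cell and plasma cell markers was 8.72, 17.8 and 12.9 CPM in NECA. In DMSO it was 51.1, 68.3 and 20.1 CPM. The DMSO libraries came in the same order as for Cyp4v3, while the NECA libraries came in the reverse order. The 5 markers tested all had a fold change below 0, and none of the 6 was at 0 in all libraries. The same DMSO order was seen in the sums of smooth muscle markers (2980, 5708 and 2262 CPM) and of enteric neuron and glia markers (134, 186 and 125 CPM). In NECA these sums were 2653, 2519 and 2746 CPM and 168, 119 and 142 CPM, so their groups overlapped. The sum of adipocyte markers, nearly all Cidec, also had that DMSO order (246, 280 and 238 CPM). It was 268, 48.4 and 246 CPM in NECA, again with overlapping groups. The part of these cell types in the Cyp4v3 difference was not tested. The Cyp4v3 means were 1.57 ± 0.401 FPKM in NECA and 5.10 ± 2.23 FPKM in DMSO (SD, n = 3 each). The edgeR log2 fold change was -1.72 (SE 0.38, unadjusted p = 0.00203, adjusted p = 0.738). DESeq2 gave -1.71 (SE 0.39, adjusted p = 0.0235), and without NECA replicate 2 -1.54 (SE 0.40, adjusted p = 0.0589), which ended its call. Leaving out each library in turn gave edgeR values between -2.03 and -1.42.

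The Cyp4f genes, which in mice and humans include ω-hydroxylases of leukotriene B4 and other eicosanoids, did not share a direction. On chromosome 17, 8 of the 9 Cyp4f genes lie within 32452723 to 32947402, and Cyp4f18 lies on chromosome 8. Cyp4f14 (32905070 to 32917342) and Cyp4f13 (32924688 to 32947402) are neighbours on the minus strand, 7345 bases apart, and are 78.3% identical in coding sequence. Cyp4f14 was at 6.47, 22.2 and 6.99 FPKM in NECA and at 4.23, 2.78 and 6.26 FPKM in DMSO. Its NECA values all lay above its DMSO values, but replicates 1 and 3 of NECA by little (log2 fold change 1.42, SE 0.53, unadjusted p = 0.0285, adjusted p = 0.738 with edgeR; 0.59 without NECA replicate 2). Cyp4f13 was at 17.4, 6.60 and 18.1 FPKM in NECA and at 18.9, 25.5 and 19.9 FPKM in DMSO. The same library that was highest for Cyp4f14 was lowest for its neighbour, and the Cyp4f13 groups did not overlap (-0.63, SE 0.35; -0.29 without NECA replicate 2).

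The 250 bases before the start of each of these neighbours are shown because the genes, so close together, ranked the libraries differently. They are from RefSeq on GRCm38.p6, minus strand, written 5′ to 3′, and for Cyp4f14 the most upstream annotated start was used. The RefSeq starts differ from the gene ends given above, which are from GENCODE. The 3′ end of the Cyp4f13 window thus lies inside the gene as given above, and the Cyp4f14 window stops short of its gene. Capitals mark the core of the aryl hydrocarbon receptor site, GCGTG on either strand.
Cyp4f14, chr17:32917357-32917606: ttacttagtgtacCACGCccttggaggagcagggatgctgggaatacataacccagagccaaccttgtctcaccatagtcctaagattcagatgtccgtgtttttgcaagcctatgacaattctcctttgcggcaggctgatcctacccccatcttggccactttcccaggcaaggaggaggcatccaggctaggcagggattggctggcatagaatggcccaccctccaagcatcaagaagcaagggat
Cyp4f13, chr17:32947362-32947611: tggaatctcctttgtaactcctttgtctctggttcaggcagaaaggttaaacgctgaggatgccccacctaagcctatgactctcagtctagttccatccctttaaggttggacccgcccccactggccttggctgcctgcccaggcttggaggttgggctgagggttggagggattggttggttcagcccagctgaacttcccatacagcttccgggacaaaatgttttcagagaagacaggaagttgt
The core GCGTG occurs in 28.2% of all 32851 RefSeq promoter windows of this length, and the Cyp4f14 window holds 1 match. Other motifs were searched on both strands of the windows. The nuclear receptor motif AGGTCA occurs in 14.0% of all windows and in neither of these. The GATA factor motif AGATAA occurs in 9.99% of all windows and in neither of these. The CDX factor motif TTTATG, known from factors that pattern the bowel, occurs in 10.8% of all windows and likewise in neither. None of these strings of letters contains another. Of the 94 P450 genes, 73 had a promoter entry.

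Cyp4f40, on the plus strand of the same cluster and 80.6% identical to Cyp4f14, was also highest in NECA replicate 2. It was at 8.38, 27.7 and 9.12 FPKM in NECA and at 8.27, 2.5 and 7.57 FPKM in DMSO. The groups differed mainly through their second replicates, the highest of the 6 in NECA and the lowest in DMSO (1.29, SE 0.58, adjusted p = 0.738 with edgeR; 0.49 without NECA replicate 2). Cyp4f16, the most abundant P450 transcript, was at 113, 45.5 and 96.4 FPKM in NECA and at 129, 140 and 97.2 FPKM in DMSO. NECA replicate 2 was the lowest by far, NECA replicate 1 lay above DMSO replicate 3, and the fold change was -0.54 (SE 0.33), or -0.24 without NECA replicate 2. Cyp4f17 was at 1.38, 0.816 and 1.18 FPKM in NECA and at 1.44, 2.09 and 1.57 FPKM in DMSO, and the groups stood just apart (-0.61, SE 0.32). Cyp4f18, known in mouse as the leukotriene B4 hydroxylase of neutrophils, averaged 1.25 ± 0.327 FPKM in NECA and 1.62 ± 0.332 FPKM in DMSO (SD, n = 3 each), and its groups overlapped.

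**Figure D3:**
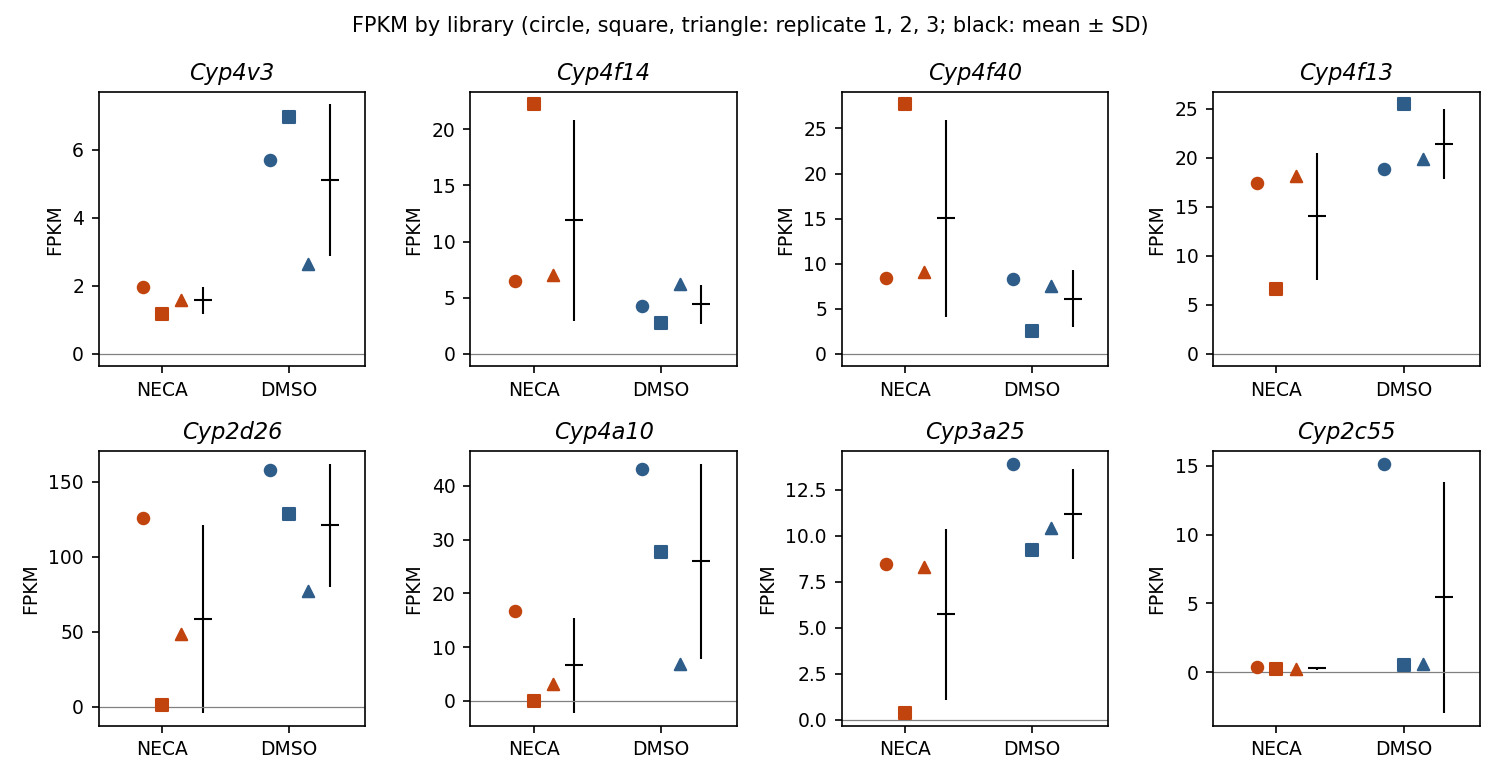
FPKM by library for 8 P450 genes, NECA left of DMSO, replicates 1 to 3 as circle, square and triangle, with the mean and SD in black. NECA replicate 2 is the highest point in Cyp4f14 (22.2) and Cyp4f40 (27.7), and the lowest in Cyp4f13 (6.60), Cyp2d26 (1.35), Cyp4a10 (0) and Cyp3a25 (0.355), while Cyp4v3 has all NECA points below all DMSO points.

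Cyp4a10 (chromosome 4, 115518264 to 115533649, plus strand), a fatty acid ω-hydroxylase gene induced through the nuclear receptor PPARα, was the P450 gene with the widest range. It had 541, 0 and 115 counts in NECA and 1646, 894 and 237 in DMSO, which is 16.7, 0 and 3.12 FPKM in NECA and 43.1, 27.8 and 6.96 FPKM in DMSO. Both groups spread widely and overlapped through NECA replicate 1, which lay above DMSO replicate 3. The 0 in NECA replicate 2 allows up to 3 counts, or 0.150 CPM. The log2 fold change was -2.01 (SE 1.32, adjusted p = 0.738 with edgeR) and -1.42 without NECA replicate 2, and it lay between -4.09 and -1.42 with each library left out in turn. Its close relatives Cyp4a31 and Cyp4a32, 96.6% and 97.2% identical to it in coding sequence, had at most 4 counts in any library. The same held for Cyp4a14, which is 75.4% identical to it. Cyp4b1 averaged 1.67 ± 0.665 FPKM in NECA and 1.97 ± 0.530 FPKM in DMSO (SD, n = 3 each), with overlapping groups.

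In family 2, Cyp2d26 (chromosome 15, 82790101 to 82794294, minus strand) was at 126, 1.35 and 48.3 FPKM in NECA and at 158, 129 and 76.9 FPKM in DMSO. The NECA libraries thus ranged from 49 to 3462 counts, and the value of NECA replicate 1 was close to that of DMSO replicate 2. The fold change was -1.08 (SE 1.09) and -0.50 without NECA replicate 2 or -2.30 without NECA replicate 1, and none passed the threshold. Cyp2d22, also on chromosome 15, was at 3.48, 1.43 and 2.5 FPKM in NECA and at 2.22, 2.52 and 2.25 FPKM in DMSO, with overlapping groups (0.06, SE 0.31). Cyp2d34 was too low to test, with 0, 9 and 0 counts in NECA and 116, 2 and 5 in DMSO.

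Cyp2d26 and Cyp4a10 ordered the 6 libraries alike: DMSO replicates 1 and 2, NECA replicate 1, DMSO replicate 3, NECA replicate 3 and NECA replicate 2, from high to low. The summed level of 5 markers of the proximal bowel (Pdx1, Gata4, Ada, Bche and Onecut2) gave the same order, with 273, 69.4 and 228 CPM in NECA and 414, 368 and 270 CPM in DMSO. In that sum NECA replicate 1 lay only just above DMSO replicate 3. Of the 5 markers, only Bche gave that order by itself. For Pdx1 and Ada, NECA replicate 1 (1.87 and 17.3 CPM) lay below DMSO replicate 3 (2.31 and 43.5 CPM). All 5 had a fold change below 0, and none was at 0 in all libraries. Of the 30 P450 genes with at least 1 FPKM, these 2 were the only ones with that exact order. Summed markers of ileal enterocytes (Fabp6, Slc10a2, Fgf15, Slc51a and Slc51b) were at 273, 2530 and 533 CPM in NECA and at 224, 239 and 487 CPM in DMSO. The part of bowel position in the P450 differences was not tested.

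The Cyp2c genes, many of them epoxygenases or hydroxylases of arachidonic and linoleic acid, fall into a cluster on chromosome 19 in which Cyp2c55, Cyp2c65 and Cyp2c66 follow each other on the plus strand. Cyp2c55 was at 0.392, 0.222 and 0.229 FPKM in NECA and at 15.2, 0.526 and 0.621 FPKM in DMSO. A single library, DMSO replicate 1, held 547 of its counts, while the other 5 had 8 to 20. The groups did not overlap, and the fold change of -4.29 (SE 1.37, unadjusted p = 0.0148, adjusted p = 0.738 with edgeR) was -1.06 without that library. Its neighbour Cyp2c65, 18321 bases away, was also highest in DMSO replicate 1 but by far less: it was at 24.2, 3.30 and 23.5 FPKM in NECA and at 45.8, 31.1 and 24.2 FPKM in DMSO (-1.01, SE 0.63; -0.52 without NECA replicate 2). Cyp2c66 was at 2.51, 0.127 and 1.94 FPKM in NECA and at 3.44, 1.89 and 2.20 FPKM in DMSO. Like Cyp2c65 it was lowest in NECA replicate 2, and its groups overlapped (-0.75, SE 0.78; -0.20 without that library).

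The uncertain pair Cyp2c68 and Cyp2c67 differed in level by far. Cyp2c68 averaged 49.2 ± 13.3 FPKM in NECA and 64.6 ± 12.6 FPKM in DMSO (SD, n = 3 each; -0.41, SE 0.24; -0.20 without NECA replicate 2). Cyp2c67 was at 0.414, 0.370 and 0.496 FPKM in NECA and at 0.638, 0.719 and 1.11 FPKM in DMSO, so that the groups stood apart (-0.96, SE 0.37, unadjusted p = 0.0335, adjusted p = 0.738 with edgeR). Those values come from 11 to 31 counts per library. Cyp2c70, in mouse liver the enzyme that makes muricholic acids, was at 0.657, 0.249 and 1.36 FPKM in NECA and at 1.98, 0.960 and 1.28 FPKM in DMSO. Its groups overlapped (-0.92, SE 0.58; leaving out NECA replicate 2 gave -0.50 and leaving out NECA replicate 3 gave -1.67). Cyp2c23, an arachidonic acid epoxygenase gene on the same chromosome, averaged 2.58 ± 0.708 FPKM in NECA and 2.79 ± 0.202 FPKM in DMSO (SD, n = 3 each).

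The fold changes of Cyp2s1 and Cyp2w1 lay above 0 but within their spread. Cyp2s1, an epithelial P450 gene, was at 3.56, 13.2 and 4.48 FPKM in NECA and at 5.68, 4.37 and 4.07 FPKM in DMSO. NECA replicate 2 alone was high, and the fold change of 0.58 (SE 0.47) was -0.24 without it. Cyp2w1, known in humans from fetal colon and colorectal tumours, was at 22.8, 16.1 and 24.3 FPKM in NECA and at 15.6, 5.01 and 20.8 FPKM in DMSO. The low value was DMSO replicate 2, and the groups overlapped (0.59, SE 0.45; 0.20 without DMSO replicate 2 and 1.01 without DMSO replicate 3).

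The arachidonic acid epoxygenase genes of the Cyp2j group were steadier. Cyp2j6 averaged 40.7 ± 13.3 FPKM in NECA and 37.5 ± 5.72 FPKM in DMSO (SD, n = 3 each), and its neighbour Cyp2j9, 14767 bases away, 1.78 ± 0.291 FPKM in NECA and 2.11 ± 0.601 FPKM in DMSO. Both had overlapping groups. The fatty acid hydroxylase gene Cyp2u1 averaged 2.03 ± 0.503 FPKM in NECA and 1.69 ± 0.637 FPKM in DMSO (0.26, SE 0.33). Cyp2b10, a target of the nuclear receptor CAR, had 23, 0 and 3 counts in NECA and 44, 10 and 2 in DMSO. These counts spread too widely for the groups to be told apart (-1.05, SE 1.27, with all libraries, NECA replicate 2 at 0 among them).

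Family 3 was dominated by Cyp3a13 (chromosome 5, 137892932 to 137921619, minus strand), which was among the steadiest of all P450 genes. It was at 60.8, 66.6 and 63.0 FPKM in NECA and at 65.6, 67.9 and 78.7 FPKM in DMSO (-0.17, SE 0.15, adjusted p = 0.759 with edgeR). NECA replicate 2, so far from the rest elsewhere, lay within the DMSO range here, and the highest and lowest library differed 1.31-fold in CPM. Cyp3a25, on the same chromosome and 76.5% identical to Cyp3a13, was at 8.47, 0.355 and 8.32 FPKM in NECA and at 13.9, 9.22 and 10.4 FPKM in DMSO. All NECA values lay below all DMSO values, 1 of them near 0 (-0.99, SE 0.82; -0.43 without NECA replicate 2). Cyp3a11, the main inducible Cyp3a gene of adult mouse liver, had 56, 0 and 20 counts in NECA and 59, 22 and 5 in DMSO.

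Family 1, the targets of the aryl hydrocarbon receptor, was near silent but for Cyp1b1. Cyp1a1, whose transcript is induced by ligands of that receptor, had 10, 1 and 5 counts in NECA and 2, 0 and 5 in DMSO. Cyp1b1 averaged 2.19 ± 0.171 FPKM in NECA and 2.25 ± 0.635 FPKM in DMSO (SD, n = 3 each; -0.05, SE 0.24). Among 3 tested genes of the same receptor outside the P450 set, the quinone reductase gene Nqo1 was at 12.9, 10.1 and 11.8 FPKM in NECA and at 26.1, 8.91 and 11.3 FPKM in DMSO. DMSO replicate 1, the library with the Cyp2c55 excess, was the high one (-0.42, SE 0.38). Tiparp averaged 6.25 ± 0.680 FPKM in NECA and 6.84 ± 0.611 FPKM in DMSO (SD, n = 3 each).

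Among the sterol-handling genes, Cyp7b1, the oxysterol 7α-hydroxylase gene, was at 0.932, 1.5 and 1.72 FPKM in NECA and at 2.02, 1.79 and 2.03 FPKM in DMSO. The groups stood apart, by a narrow gap in NECA replicate 3 (-0.50, SE 0.30, adjusted p = 0.738 with edgeR; -0.28 without NECA replicate 1). Cyp27a1, the sterol 27-hydroxylase gene, averaged 2.41 ± 0.539 FPKM in NECA and 2.58 ± 0.0967 FPKM in DMSO, and Cyp39a1, the 24-hydroxycholesterol 7α-hydroxylase gene, 2.41 ± 0.0833 FPKM in NECA and 2.47 ± 0.331 FPKM in DMSO (SD, n = 3 each). Cyp39a1 had the smallest range of the 30 genes, with a ratio of 1.30 between its highest and lowest library. Cyp46a1, the neuronal cholesterol 24-hydroxylase gene, had 5 to 17 counts per library.

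Of the steroid hormone, vitamin D and retinoid genes, only Cyp26b1 and the low Cyp11a1 could be tested. Cyp11a1, which makes pregnenolone from cholesterol, had 14, 13 and 19 counts in NECA and 14, 5 and 15 in DMSO (0.35, SE 0.47). Cyp11b1 and Cyp17a1 had 2 counts each and Cyp11b2 had 1, all in NECA libraries. The vitamin D 24-hydroxylase gene Cyp24a1 had 1 count. The vitamin D 1α-hydroxylase gene Cyp27b1 had 0, 6 and 0 counts in NECA and 2, 4 and 1 in DMSO, and the 25-hydroxylase gene Cyp2r1 had 8, 16 and 8 counts in NECA and 5, 11 and 2 in DMSO. Cyp26b1, which inactivates retinoic acid, was at 1.70, 1.58 and 1.97 FPKM in NECA and at 1.18, 0.612 and 1.68 FPKM in DMSO. Only DMSO replicate 3 reached into the NECA range (0.58, SE 0.35, adjusted p = 0.738 with edgeR; 0.28 without DMSO replicate 2 and 0.95 without DMSO replicate 3). Cyp26a1 and Cyp26c1 had at most 4 counts in any library. Cyp20a1, which has no known substrate, averaged 6.03 ± 1.31 FPKM in NECA and 6.49 ± 0.305 FPKM in DMSO (SD, n = 3 each; -0.12, SE 0.20; -0.31 without NECA replicate 2).

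NECA replicate 2 lay at an end of the range in most P450 genes. It was the lowest library in 19 of the 30 genes with at least 1 FPKM (63.3%) and the highest in 5 (16.7%), against 29.0% and 33.0% of all 12745 genes with at least 1 FPKM. In 6 of the 30 (20.0%, against 2.83% of all such genes) it was more than 3 times lower than the median of the other 5 libraries: Cyp2d26, Cyp2c65, Cyp4a10, Cyp3a25, Cyp2c66 and Cyp2c70. In 2 (6.67%, against 1.22%) it was more than 3 times higher, Cyp4f40 and Cyp4f14. These counts used CPM with 0.5 added. In 10 of the 30 genes the highest and lowest library differed less than 2-fold. The absorptive enterocyte, goblet cell, Paneth cell, proximal and ileal marker sums given above were also furthest from the rest in that library, Vil1 and Sis going against the enterocyte sum. Marker sums of other kinds were at an end of the range there too, such as macrophage (153 CPM, against 373 to 500 CPM) and enteroendocrine cell (303 CPM, against 165 to 204 CPM). Most of the macrophage sum was Csf1r, while Mrc1 and Cx3cr1 were lowest in NECA replicate 1. Among the enteroendocrine markers Cck went against its sum, being lowest in NECA replicate 2 (18.3 CPM, against 21.5 to 41.2 CPM). The sums of hepatocyte, exocrine pancreas, adipocyte and endothelium markers were lowest in NECA replicate 2, while those of smooth muscle and B cells were not at an end. The adipocyte sum was nearly all Cidec, and the pancreas sum nearly all Cela1 and Ctrb1. The endothelial marker Prox1 was highest in that library (7.83 CPM, against 2.48 to 6.03 CPM), and Lyve1 was lowest in DMSO replicate 2. The hepatocyte marker Fgb was also highest in NECA replicate 2 (7.98 CPM, against 0 to 1.75 CPM). The part of these cell types was not tested.

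**Figure D4:**
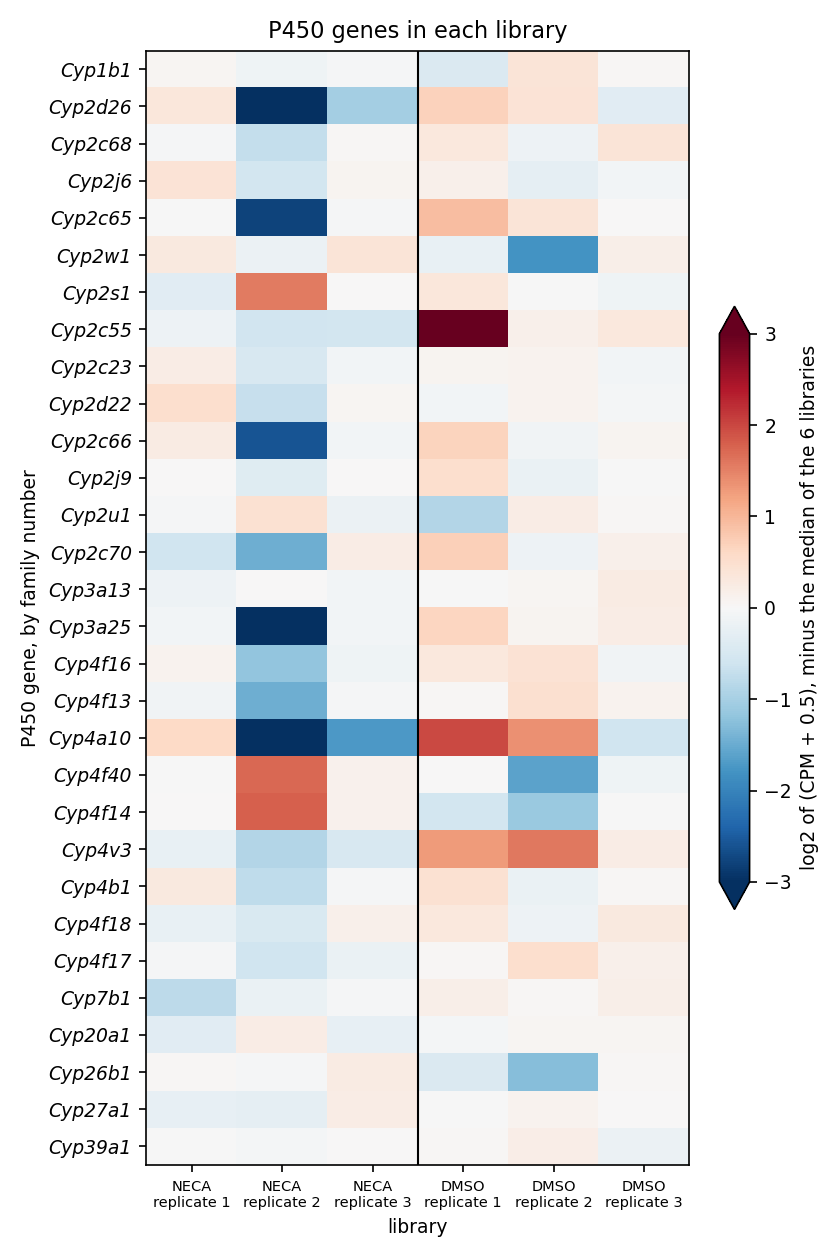
Log2 of CPM plus 0.5 in each library minus the median of the 6 libraries, for the 30 P450 genes with at least 1 FPKM, by family number, NECA left of DMSO and colours ending at 3 and -3. The NECA replicate 2 column holds the deepest blue cells, in Cyp2d26, Cyp2c65, Cyp2c66, Cyp3a25 and Cyp4a10, beside red cells in Cyp2s1, Cyp4f40 and Cyp4f14, and Cyp2c55 is red in DMSO replicate 1.

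The genes that serve P450 enzymes showed no call. Of 112 genes on 8 lists, 101 were tested, 49 with a fold change above 0 and 52 below. EdgeR and DESeq2 each called 0 of them, and 3 had an unadjusted edgeR p under 0.05 (2.97%, against 5.48% of all tested genes). Of the 8 redox partners, 4 were higher and 4 lower, with a median of 0.03. Pgrmc1, a heme-binding partner protein, averaged 80.8 ± 17.3 FPKM in NECA and 105 ± 4.19 FPKM in DMSO (SD, n = 3 each; -0.39, SE 0.19; -0.22 without NECA replicate 2), its groups apart, and the ferredoxin gene Fdx1 10.6 ± 0.800 FPKM in NECA and 9.09 ± 0.848 FPKM in DMSO. Of 22 ligand-activated and hepatic-type transcription factors and their partners, 15 were higher and 7 lower, with a median of 0.09. Cebpa was at 79.1, 84.9 and 65.7 FPKM in NECA and at 54.2, 32.2 and 61.0 FPKM in DMSO, and its groups did not overlap (0.63, SE 0.25, unadjusted p = 0.0375, adjusted p = 0.738 with edgeR).

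Of the 8 heme synthesis genes, 6 were higher and 2 lower (median 0.05), among them Cpox (0.49, SE 0.24). Of 32 tested conjugating enzymes and efflux pumps, 16 were higher and 16 lower. The sulfotransferase gene Sult2b1 was at 3.73, 5.49 and 4.32 FPKM in NECA and at 3.05, 2.85 and 2.75 FPKM in DMSO. Its groups stood apart (0.63, SE 0.20, unadjusted p = 0.0126, adjusted p = 0.738 with edgeR), while those of the glucuronosyltransferase gene Ugt2b34 overlapped (0.90, SE 0.42). Of 11 tested retinoid genes 10 were lower, with a median of -0.24, and Rdh7 (-1.47, SE 0.999; -0.90 without NECA replicate 2) and Dhrs9 (0.42, SE 0.31) had the smallest p. Rdh7 was at 14.4, 0.294 and 7.91 FPKM in NECA and at 35.9, 16.8 and 8.68 FPKM in DMSO, lowest in NECA replicate 2 as Cyp2d26 was.

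Of 10 tested eicosanoid genes 9 were lower, with a median of -0.39. The cyclooxygenase gene Ptgs1 was at 8.73, 7.36 and 8.99 FPKM in NECA and at 10.5, 10.4 and 10.6 FPKM in DMSO, groups that did not overlap (-0.35, SE 0.14, unadjusted p = 0.0368, adjusted p = 0.738 with edgeR). The prostacyclin synthase gene Ptgis, itself a P450 by structure though not by symbol, averaged 4.12 ± 0.636 FPKM in NECA and 6.09 ± 1.69 FPKM in DMSO (SD, n = 3 each; -0.58, SE 0.25). Of 9 tested steroid synthesis genes outside the P450 set 6 were higher, with a median of 0.09. Hsd11b2, the gene of the enzyme that inactivates glucocorticoids, was at 2.58, 3.54 and 1.55 FPKM in NECA and at 11.5, 1.10 and 1.38 FPKM in DMSO. Like Cyp2c55 it was high in DMSO replicate 1 alone (-0.88, SE 0.85). Srd5a1 averaged 2.48 ± 0.187 FPKM in NECA and 2.87 ± 0.568 FPKM in DMSO (SD, n = 3 each).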

How the data were processed

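For each library the authors deposited whole-number counts per gene, not normalized, and FPKM values, per the file headers. The submitters' processing notes name HISAT, StringTie and edgeR and the builds mm10 and GRCm38. No source used here gives their versions, the strand setting or the handling of reads with several matches. FPKM served for levels and counts for tests.

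Low genes were removed in edgeR 4.0.16 by filterByExpr, with 10 as the minimum count and 15 as the minimum total. TMM factors set the scale, and the quasi-likelihood test compared NECA with DMSO (R 4.3.3). No covariate was used, and two-sided p-values were adjusted over all tested genes after Benjamini and Hochberg. Standard errors were derived from each F statistic. DESeq2 1.42.0 and limma 3.58.1 (voom with quality weights) gave alternatives, beside other scaling and filters, a replicate block and each library left out. The fits were also run on simulated counts, with the same spread set for every gene and no library standing apart. These data differ from that setting, so the simulation does not show how the fits behave on them. Coordinates and transcripts were from GENCODE M21 (GRCm38), promoters from RefSeq (GRCm38.p6). Coding sequences were aligned with Biopython 1.88, and identity was taken over aligned bases.

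Genes named were those with at least 1 FPKM, the 5 with the smallest p in each direction, genes called by any fit, genes whose groups did not overlap with at least 10 counts in the higher group, the 3 with the widest range, and up to 2 per list of partner genes, of which some are not reported here. Other low genes were named for their family or role after their values were seen. The genes, lists and tests were chosen with earlier results of these data known.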

Additional observations from a re-analysis of the deposited data

How the results depend on the processing

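EdgeR called 0 P450 genes and 0 partner genes with DESeq2 size factors, without a filter, with a filter of 5 CPM, with a replicate block and with each library left out (0 to 0), and limma-voom with quality weights also called 0. DESeq2 called 1 P450 gene (2.94%, against 0.0695% of all genes). Without NECA replicate 2 it called 0 P450 genes, and 0.186% of all genes. The median log2 fold change of the tested P450 genes, -0.26, was -0.07 over the 75 genes tested without a filter, -0.15 over the 24 left by a filter of 5 CPM, and between -0.41 and -0.17 with 1 library left out. Of 396 alternative values of 31 named genes, 377 kept direction and side of the threshold, 1 (Cyp4v3 with DESeq2) passed it, and 18 in 9 genes changed sign. The cause of the sign changes was not tested. Among the 377 was Cyp2c55 with DESeq2, which had no adjusted p. With 1 library left out, the fold change ran from -0.26 to 0.17 in Cyp1b1, -0.34 to 0.0516 in Cyp2c23, -0.25 to 0.34 in Cyp2d22, -0.13 to 0.33 in Cyp2j6, -0.24 to 0.91 in Cyp2s1, -0.0394 to 0.49 in Cyp2u1, -0.15 to 0.0448 in Cyp39a1 and -0.53 to 0.0206 in Cyp4b1. DESeq2 without NECA replicate 2 turned Cyp1b1 (0.00659), Cyp2c23 (0.0570), Cyp2s1 (-0.24) and Cyp4b1 (0.0271). Quality weights turned Cyp1b1 (0.20), Cyp27a1 (0.0347), Cyp2s1 (-0.16) and Cyp39a1 (0.0159). The labels do not say whether replicate numbers pair the samples. Across genes, the deviations of same-numbered libraries from their group means correlated at 0.00871, -0.186 and -0.0202. Those of differently numbered libraries correlated at -0.300 to 0.248. With 3 libraries per group, these correlations cannot settle whether the samples were paired. With the replicate block the median was -0.35 and Cyp2d22 was at -0.0127. The summed P450 FPKM under TMM scaling was 549, 296 and 443 in NECA and 687, 580 and 506 in DMSO. Counts with each library left out were chosen after seeing the data: of the 34 genes, 22 to 27 had a fold change below 0, 9 to 12 had groups apart with NECA lower and 1 to 3 with NECA higher. Of all tested genes, 7.16% had groups apart with NECA lower and 6.49% with NECA higher. Without NECA replicate 2 these shares rose to 12.1% and 11.4%. Shares with the other libraries left out are not given, so these counts are not read as particular to P450 genes. The filter on low counts left out 60 of the 94 genes, and 19 had no count.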
